A study of Arabidopsis thaliana with 4 samples.

Results

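The plastid genome of Arabidopsis thaliana was read on the Affymetrix ATH1 array by 74 probe sets, which are the subject here. A probe set is a group of short oligonucleotides that together give 1 signal for 1 target transcript. The 74 were taken by identifier, as the rows numbered 244932 to 244938 or 244960 to 245026, which is the array design's block for the chloroplast genome, out of 22810 probe sets in all. No measured value entered this rule, but the set was chosen for study with earlier results of these data known. Of the 74, 67 have identifiers ending in _at and 7 in _s_at, an ending that marks probes which can bind more than 1 transcript. The tables used here pair no probe set with a gene, so members are given by identifier, and no gene, operon or complex is assigned to any of them. For the same reason the leaf identity of the samples could not be checked against marker genes, and no sequence is shown.

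Rosette leaves of soil-grown wild-type plants were compared with those of a transformed line, marked AS12 in the sample titles, which is Col-0 made antisense for AOX1a (At3g22370) by a construct driven by the 35S CaMV promoter. This promoter, of cauliflower mosaic virus, is active in most plant tissues, the labels name 1 such line, and they do not say whether the wild type carried an empty construct or which accession it was. Plants of both genotypes were 21 days old and had grown at 23 °C in a potting mix without fertilizer, with a 14 h photoperiod and light of 350 µmol photons m-2 s-1. Each genotype was measured on 2 arrays, each with RNA pooled from several plants: 7 in wild type 1, 9 in wild type 2, 9 in antisense 1 and 8 in antisense 2. Array-wide values were close to each other, with 55.5% to 57.3% of probe sets called present in the deposited quality sheet. The AOX1a transcript itself was not analysed here, so the genotype labels were not checked against it.

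The plastid genome encodes core subunits of the photosynthetic machinery together with part of the apparatus that expresses them. The reference annotation (TAIR10.1) lists 85 protein-coding entries under 78 distinct symbols for it. Among the symbols are 15 for photosystem II, which oxidises water (psb), 5 for photosystem I, which reduces ferredoxin (psa), and 6 for the cytochrome b6f complex that links them (pet). The ATP synthase (atp) has 6, the NDH complex of cyclic electron flow (ndh) has 11, and the large subunit of the carbon-fixing enzyme Rubisco (rbcL) has 1. The plastid-encoded RNA polymerase (rpo) has 4 and the proteins of the plastid ribosome 12 (rps) and 9 (rpl). Transcription in plastids is shared between this bacterial-type polymerase, which needs nucleus-encoded sigma factors, and phage-type polymerases encoded in the nucleus. In plastids, as in bacteria, a poly(A) tail marks an RNA for degradation. Standard cRNA labelling for these arrays starts from the poly(A) tail, so it reads plastid transcripts only in part. AOX1a acts in another organelle: its product, alternative oxidase, passes electrons from ubiquinol to oxygen in the inner mitochondrial membrane.

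Plastid probe sets gave strong signals on all 4 arrays. Of the 74, 71 were above the filter that left out the 40% of probe sets with the lowest mean signal, which corresponds to a mean of 97.4. The median signal of the 71 was 4162 on wild type 1, 4542 on wild type 2, 3511 on antisense 1 and 4498 on antisense 2, in the deposited linear units. Antisense 1 was thus the lowest array, while antisense 2 lay between the wild-type arrays. Over all 13648 tested probe sets the median signal was 426.4, 441.4, 445.4 and 421.4 on the same arrays. The mean signal (geometric, over 4 arrays) was at least 1000 for 58 of the 71 and at least 10000 for 16. These figures describe signals, which depend on each probe set's sequence as well as on its transcript, so the members are not ordered by abundance. The 3 members below the filter, 244989_s_at, 244994_at and 244999_at, read between 49.1 and 123.6 on every array and were not tested.

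As a share of the summed signal of all non-control probe sets, the 74 members made up 2.72% on wild type 1 and 2.77% on wild type 2. They made up 2.42% on antisense 1 and 2.63% on antisense 2. In this share the antisense arrays lay below the wild-type arrays, without overlap. A sum of linear signals rests mostly on the strongest members, and in the median signal antisense 2 lay between the wild-type arrays. Among strong members, 245001_at read 9754 on antisense 2, against 22581 and 18595 in the wild type. Of 210 other probe sets with a mean signal of 10000 or more, 91.0% also had a lower mean log2 signal in the antisense line. No test is given for it, since 0.33 is the smallest two-sided p that an exact permutation of 2 arrays against 2 allows. In whole leaves, fewer cells with chloroplasts and less plastid RNA per cell cannot be told apart, nor can a lower amount of a plastid transcript and a smaller polyadenylated part of it.

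Between the genotypes, most plastid probe sets had slightly lower signals in the antisense line, and none passed the test. Of the 71 tested, 65 had a mean log2 difference (antisense minus wild type) below 0 and 6 above 0, where 56% of all tested probe sets were below 0. The median difference was -0.14 log2 units, with quartiles of -0.24 and -0.083. Single members ran from -0.68 to 0.11, all within the range of -3.06 to 2.88 over all tested probe sets. The median over all tested probe sets was -0.027, which leaves -0.11 for the plastid set relative to it. In 22 of the 71 each antisense array lay below each wild-type array, as in 16.1% of all tested probe sets, and in 0 of the 71 each lay above, as in 10.7%. The count of 22 was 14 after quantile normalization and 16 after cyclic loess, an adjustment for array differences that depend on signal level. Counting both directions, the genotypes separated 21.1% of the plastid and 27.5% of the other probe sets after quantile normalization. After cyclic loess these shares were 23.9% and 26.9%, so the plastid share was then not above that of the others. The median difference was -0.10 and -0.081 under these scalings.

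Limma called 0 plastid probe sets higher and 0 lower at an adjusted p (Benjamini-Hochberg over all 13648 tested) of 0.05, and 0% of all tested probe sets. At an unadjusted p of 0.05 limma gave 2 members, both lower in the antisense line. Of all tested probe sets, 2.78% met that limit, 1.09% as lower and 1.69% as higher. The 95% interval of a member's difference reached 0.49 log2 units to either side in the median, a factor of 1.40, so single differences of the size of the set's median were not detectable with 2 arrays per genotype. In 0 members did every antisense array differ from every wild-type array by 1.5-fold or more in one direction, where 0.169% of all tested probe sets were so far lower and 0.528% so far higher.

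In the deposited signals, the shift of the set rested mainly on antisense 1. Relative to each member's mean over the 4 arrays, the median deviation was 0.048 log2 units on wild type 1 (quartiles -0.061 and 0.15), 0.11 on wild type 2 (0.00036 and 0.24), -0.19 on antisense 1 (-0.39 and -0.068) and 0.032 on antisense 2 (-0.083 and 0.16). More than 3 in 4 members were thus below their own mean on antisense 1. Over all tested probe sets the median deviation lay between -0.026 and 0.033 on every array. Antisense 1 was the lowest of the 4 arrays for 51 of the 71 members, where it was the lowest for 27.5% of all tested probe sets. By mean signal, it was the lowest for 11 of 13 members below 1000, 30 of 42 between 1000 and 10000, and 10 of 16 at 10000 or more. Among other probe sets in these ranges the shares were 24.5%, 35.3% and 45.7%. Antisense 2 was the lowest for 14 of the 71 members and a wild-type array for 6. These counts moved with the scaling. Under quantile normalization antisense 1 was the lowest for 42 members and antisense 2 for 21, against 4159 and 3692 of the 13577 other probe sets. Under cyclic loess it was 40 and 22, against 3628 and 3743, and under median scaling 58 and 8, against 4618 and 3255. The members for which antisense 1 was the highest array numbered 2, namely 244964_at and 245005_at. Without antisense 1 the set's median difference was -0.025, with 39 of 71 members below 0, and relative to all tested probe sets it was 0.0094. Without antisense 2 it was -0.28, with 67 below 0. Against wild type 1, antisense 1 was lower for 66 of the 71 members, by 0.24 log2 units in the median, while antisense 2 was lower for 38, by 0.048. Against wild type 2, antisense 1 was lower for 62 and antisense 2 for 43.

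Antisense 1 had the highest ratio of 3' to 5' signal for actin, 5.40 against 4.74 on wild type 1, 4.15 on wild type 2 and 4.11 on antisense 2, and for GAPDH, 1.72 against 1.66, 1.47 and 1.57, each computed here from the signals of the array's first control probe design. The quality sheet's GAPDH ratios equal these, while its column headed actin reads 4.68, 3.16, 3.45 and 3.82 (wild type 1 and 2, antisense 1 and 2), which are the values of the ubiquitin probe sets in the signal table and give another order. This ratio rises when RNA is degraded. Antisense 1 was not the highest for ubiquitin by its first design (3.45, against 4.68, 3.16 and 3.82) or for any of the 3 transcripts by the second design. It also had the lowest background of the 4 arrays, 47.93, and the highest percent present, 57.3%. The part of these values in the plastid signals was not tested.

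Members of different signal strength differed from other probe sets of that strength to different degrees. The 3 signal ranges used here were chosen after the data were seen. Among the 16 plastid probe sets with a mean signal of 10000 or more, all 16 had a difference below 0, with a median of -0.099. The 210 other probe sets in that range had a median of -0.080, and 91.0% of them were below 0. Between 1000 and 10000, 38 of 42 plastid probe sets were below 0, with a median of -0.17, against 57.8% and a median of -0.028 for 3105 others. Below 1000 it was 11 of 13 with a median of -0.12, against 54.5% and -0.023 for 10262 others. After cyclic loess the plastid medians from the weakest to the strongest range were -0.11, -0.13 and -0.030, and those of the others -0.0020, 0.00075 and -0.012. In the strongest range 14 of the 16 plastid members were then below 0, against 55.2% of the 210 others. Antisense 1 was then the lowest array for 3 of these 16, against 14.3% of the 210 others. In the middle and weakest ranges it was the lowest for 26 of 42 and 11 of 13 plastid members, against 28.0% and 26.6% of the others. Under both treatments, the gap between the medians of plastid and other probe sets was thus wider in the weaker and middle ranges than in the strongest. No test of this difference was made.

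The plastid probe sets had a median SD over the 4 arrays of 0.20 log2 units per member, against 0.21 for all tested probe sets, which are mostly of weaker signal. Within a signal range the plastid median was 0.28 against 0.22 for the others below 1000, 0.23 against 0.17 between 1000 and 10000, and 0.11 against 0.11 at 10000 or more. In the ranges that hold 55 of the 71 members, the plastid median was thus the higher, a difference that was not tested. It narrowed with signal, from 0.27 in the 36 members of lower mean signal to 0.14 in the 35 of higher mean signal. The narrowest member was 245006_at, at 22347 and 22395 on the wild-type arrays and 20735 and 21990 on the antisense arrays, 1.08-fold from lowest to highest. The widest was 244982_at, at 976.7 and 1498 on the wild-type arrays and 572.9 and 1783 on the antisense arrays, 3.11-fold from lowest to highest. Its groups overlapped, with antisense 1 the lowest and antisense 2 the highest array. Both were chosen after their values were seen, as were the other members named below except 245001_at and 244981_at. Those were picked from the same values by a planned rule.

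Arrays with the same replicate number resembled each other in the plastid probe sets, and the other probe sets had another order. For the 71 members, the SD of the log2 difference was 0.21 between wild type 1 and antisense 1 and 0.26 between wild type 2 and antisense 2. Within a genotype it was 0.30 in the wild type and 0.43 in the antisense line, and it was 0.36 and 0.34 for the crossed pairs (wild type 1 with antisense 2, and wild type 2 with antisense 1). For the 13577 other probe sets, the crossed pairs were the closest, at 0.38 and 0.36, against 0.52 and 0.42 for equal numbers, 0.40 for the wild-type pair and 0.48 for the antisense pair. The step from array 1 to array 2 in the wild type and the same step in the antisense line correlated at r = 0.53 across the 71 members and at -0.43 across the others. Under quantile normalization and cyclic loess these were 0.45 and 0.47 for the members and -0.42 under each for the others. These correlations are descriptions: all members share the same 4 arrays, plastid transcripts are made in long shared units, and probe sets are not independent replicates.

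The 4 arrays can be divided 2 against 2 in 3 ways, and the plastid probe sets were counted for each. Barring ties, every probe set is separated without overlap by exactly 1 of the 3 divisions. The 3 counts are therefore not separate observations: a higher count for 1 division leaves fewer for the others, and an even share is 1 in 3. The genotypes were separated without overlap by 22 members, as given above. Equal replicate numbers were separated by 32 members, of which 26 were higher on the arrays numbered 2 (12.3% of all tested probe sets) and 6 lower (11%). The crossed pairs were separated by 17 members, of which 14 were higher on wild type 1 and antisense 2 (21.9% of all tested probe sets), and the opposite order was found for 27.9% of all tested probe sets. As shares of their set, the genotypes separated 31.0% of the plastid and 26.8% of the other probe sets. Equal numbers separated 45.1% and 23.2%, and crossed pairs separated 23.9% and 49.9%. The share separated by number was 54.9% under both quantile normalization and cyclic loess and 39.4% under median scaling. For the other probe sets it was 23.6%, 23.6% and 24.1% under the same scalings. In that order, crossed pairs separated 22.5%, 21.1% and 33.8% of the plastid and 48.7%, 49.5% and 48.8% of the other probe sets. The genotypes separated 21.1%, 23.9% and 26.8% of the plastid and 27.5%, 26.9% and 27.2% of the other probe sets. The median difference between the 2 groups of arrays was 0.15 log2 units for the arrays numbered 2 minus those numbered 1 and 0.090 for wild type 1 and antisense 2 minus the others, beside -0.14 for the antisense minus the wild-type arrays. With a gap of 1.5-fold or more, 4 members separated the numbers (0.264% of all tested probe sets), 0 the crossed pairs (2.75%) and 0 the genotypes.

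These 4 members were higher on both arrays numbered 2. Probe set 245007_at read 4037 on wild type 1, 7354 on wild type 2, 3661 on antisense 1 and 8263 on antisense 2, or 2.03-fold higher on the arrays numbered 2. Probe set 245002_at read 2946, 4542, 2776 and 4498 in the same order, 1.58-fold higher. Probe set 245000_at read 373.2, 662.7, 353.1 and 641.0, or 1.80-fold higher. For these and for 244982_at, given above and 2.18-fold higher on the arrays numbered 2, the genotypes overlapped. This overlap follows from choosing members separated by number, so it is no further result about the genotypes. The limma difference between genotypes was 0.014 log2 units for 245007_at (95% interval -1.05 to 1.07) and -0.050 for 245002_at (-0.79 to 0.69), with adjusted p above 0.99 for both. In the quality sheet, the background was 51.81 and 53.16 on the arrays numbered 2 and 48.58 and 47.93 on those numbered 1, and noise (1.91 and 1.94 against 1.84 and 1.82) and scale factor (4.07 and 4.18 against 4.54 and 4.34) also separated the numbers. So did the actin and GAPDH ratios of the first control design. Percent present and the ubiquitin ratio of that design separated the crossed pairs instead, as did actin and ubiquitin by the second design. GAPDH by the second design separated the genotypes. Barring ties, any such score must separate 1 of the 3 divisions. The labels do not say whether equally numbered arrays were handled together, and the part of these values in the plastid signals was not tested.

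The members with the smallest p for the genotype difference were 245001_at and 244981_at, the lower ones that the naming rule selects. Since the rule picked them by p and by groups without overlap, neither their intervals nor that separation is support for a difference. There was no higher member to name, as none had its antisense arrays above its wild-type arrays without overlap. Probe set 245001_at read 22581 on wild type 1, 18595 on wild type 2, 16884 on antisense 1 and 9754 on antisense 2. The groups did not overlap, but antisense 1 lay closer to wild type 2 than to antisense 2. Its difference was -0.68 log2 units (95% interval -1.32 to -0.029), or 1.60-fold lower in the antisense line, with an adjusted p above 0.99 by limma. Without antisense 2 the difference was -0.28, and without antisense 1 it was -1.07. Probe set 244981_at read 1660 and 2455 in the wild type and 1151 and 1476 in the antisense line. Its difference was -0.63 (-1.25 to -0.015), 1.55-fold lower, with an adjusted p above 0.99 by limma. Without wild type 2 the difference was -0.35. The highest difference above 0 was that of 245015_at, which read 1556 and 1554 in the wild type and 1266 and 2223 in the antisense line. Its difference of 0.11 (-0.58 to 0.80) had the wild-type arrays between the antisense ones.

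In the stretch numbered 244932 to 244938, 7 members were tested with a median difference of -0.15 and 5 of 7 below 0, and in the other stretch 64 with a median of -0.13 and 60 below 0. The 6 tested members ending in _s_at had a median of -0.10, all 6 below 0, and the 65 ending in _at had -0.14, with 59 below 0. The step from array 1 to array 2 correlated between the genotypes at 0.05 in the first stretch and 0.57 in the second, and at 0.07 and 0.55 for the _s_at and _at members, with few members in the smaller group each time. None of these differences was tested. The other 52 probe sets numbered 244901 to 244959, which surround the first stretch, were weaker: 17 passed the filter, with a median signal of 257.2 and 262.4 in the wild type and 214.1 and 226.6 in the antisense line. Their median difference was -0.080, with 12 of 17 below 0. Equal replicate numbers were separated by 9 of the 17, the crossed pairs by 4 and the genotypes by 4. The step from array 1 to array 2 correlated between the genotypes at 0.39 across them. The order by replicate number was thus not particular to the plastid members. Antisense 1 was the lowest array for 29.4% of these 17, against 71.8% of the plastid members, and the difference between these shares was not tested.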

How the data were processed

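Leaf RNA of 4 samples was hybridised to ATH1 arrays, 1 array each, 2 per genotype. Per the labels, the authors' array facility computed signals with MicroArray Suite 5.0, and the table gives them as linear intensities. The deposited intensities had been scaled to one level, with a 2% trimmed mean of 500.05 on every array, so no scaling was added. The deposited quality sheet gives background, noise, scale factor, percent present and ratio values, used here as scores and tied to arrays by the names in the sheet. The ratios of 3' to 5' signal in the text were computed from the control probe sets, since the sheet's column headed actin holds the ubiquitin values.

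Values were log2-transformed. The 64 control probe sets were left out, then the 40% of the rest with the lowest mean log2 value, leaving 13648 probe sets. Genotypes were compared with limma 3.58.1 in R 4.3.3 (lmFit and trended eBayes), adjusting p-values by Benjamini-Hochberg over all of these. The fit had 2 residual and 4.25 prior degrees of freedom and was tested on simulated data. Replicates are separate plant pools of one experiment. The p-values rest on the spread between them, with each variance drawn by eBayes towards a trend over all tested probe sets. Precision is limited by the number of arrays.

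The members and lists were chosen with earlier results of these data known. The planned lists by gene function and operon, their named genes and the marker genes were not used, since no table used here pairs probe sets with genes. By the planned rule the text names up to 2 higher and 2 lower members, those of smallest p without overlap of the groups; others named were chosen after their values were seen. Equal replicate numbers were not treated as pairs in the main fit, since nothing in the labels ties them together. Same-numbered deviations correlated at -0.42 across all tested probe sets and at 0.53 across the 71 plastid members. The 2 divisions of the arrays other than by genotype are described without a test. Alternatives were the replicate number as a block, quantile, median and cyclic loess scaling, an offset of 8.1 added to the signals, a 60% filter and none, eBayes without trend and with robust estimation, leaving out _s_at and _x_at probe sets, an adjusted p of 0.1, a 2-fold limit, and leaving out each array.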

Additional observations from a re-analysis of the deposited data

How the results depend on the processing

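With the replicate number as a replicate block, limma called 0 plastid probe sets higher and 0 lower, as without it, and so did every other setting in which calls were counted, each left-out array included (the 2-fold limit and the omission of strong members concern other values). A crossed pairing of the arrays as a block, added because same-numbered deviations correlated at -0.42, also called 0 and 0. The 22 members with each antisense array below each wild-type array became 14 under quantile normalization, and the 0 with both above became 1 under quantile normalization and 1 under cyclic loess; the cause was not tested. Leaving out 1 array makes such separation easier, as fewer pairs must be met: it gave 28 to 59 members below (37 and 36 when wild type 1 or wild type 2 was dropped, 59 when antisense 2 was), 2 to 18 above, and 0 to 3 members at least 1.5-fold apart. No share over all tested probe sets is given for these settings. The counts with an array left out are therefore not read as a result about the members. The set's median difference ran from -0.28 (without antisense 2) to -0.025 (without antisense 1), and its value relative to all tested probe sets from -0.27 to 0.0094 in the same order. The members below 0 ran from 39 to 67 in the same order reversed, among settings that kept a filter. Without a filter 68 of 74 were below 0. Without the 16 members of the strongest signals, a setting added after seeing the data, the median was -0.17. The per-array medians moved by less than the spread between replicates under all 3 scalings. Among single members, 245006_at changed sign under quantile normalization (0.027) and cyclic loess (0.010). With an array left out, 245007_at ran from -0.57 to 0.60, 244982_at from -1.08 to 0.56, 245000_at from -0.49 to 0.37, 245002_at from -0.40 to 0.30, 245015_at from -0.30 to 0.52, 244964_at from -0.31 to 0.16 and 245005_at from -0.026 to 0.22. Probe sets 245001_at (-1.07 to -0.28) and 244981_at (-0.91 to -0.35) stayed below 0 under all 16 settings. The rule that chose them required groups without overlap and took the smallest p, so this is no support. Groups of genes by function were not computed and so were not varied.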
